A study of Mus musculus with 3 samples.

Results

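Lyz2 and Lyz1, neighbouring lysozyme genes of the mouse, were taken by gene symbol: 2 of 55536 annotated genes. Lysozyme is a secreted and lysosomal enzyme that cuts the sugar backbone of peptidoglycan, the polymer of bacterial cell walls. In the mouse, Lyz2 encodes the M lysozyme of macrophages and other myeloid cells and is the locus into which the LysM-Cre transgene was placed. Lyz1 encodes the P lysozyme, known from Paneth cells of the small intestine. The fragments released from peptidoglycan are ligands of the cytosolic receptors Nod1 and Nod2.

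RNA came from the cytosolic fraction of bone marrow derived macrophages of strain C57BL/6J, primary cells that had received 100 ng/ml lipid A, the TLR4-activating part of lipopolysaccharide, for 25 minutes. Ribosomal RNA was depleted before sequencing. The 3 libraries are biological replicates 1 to 3 of 1 group, age and sex were not collected, and all refer to the same donor record, so whether they came from separate animals is not known. No unstimulated cells, other fraction or other tissue was measured here, so no response to lipid A can be read from these values. The libraries held 52956907, 43547422 and 38608503 counts on annotated genes in replicates 1, 2 and 3. All 7 listed macrophage markers, from Adgre1 to Cd14, stood at 1 TPM or more in every library, where 41.3% of 22015 nuclear protein-coding genes did. TPM, as deposited, corrects each gene for its length and each library for its total.

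Both genes lie on the minus strand of chromosome 10 (mm10). Lyz2 spans 117277331 to 117282321 and Lyz1 spans 117287797 to 117292868, with 5475 bases between them, and no other annotated gene overlaps either. Each has 4 exons and 1 annotated transcript, of 1316 bases for Lyz2 and 1263 bases for Lyz1. Both coding sequences are 447 bases long with the stop codon. Their first 300 bases, with 20 of the 22 differing bases, are shown because such bases are what lets a read be given to Lyz2 or to Lyz1. They were taken from the GENCODE M21 transcripts, written 5′ to 3′, with the differing bases in capitals.
Lyz2: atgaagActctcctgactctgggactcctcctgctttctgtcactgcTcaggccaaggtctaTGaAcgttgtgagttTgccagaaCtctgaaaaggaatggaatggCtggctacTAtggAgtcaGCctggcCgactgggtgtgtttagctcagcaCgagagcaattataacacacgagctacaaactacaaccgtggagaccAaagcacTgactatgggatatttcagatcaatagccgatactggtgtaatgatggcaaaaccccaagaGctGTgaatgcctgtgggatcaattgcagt
Lyz1: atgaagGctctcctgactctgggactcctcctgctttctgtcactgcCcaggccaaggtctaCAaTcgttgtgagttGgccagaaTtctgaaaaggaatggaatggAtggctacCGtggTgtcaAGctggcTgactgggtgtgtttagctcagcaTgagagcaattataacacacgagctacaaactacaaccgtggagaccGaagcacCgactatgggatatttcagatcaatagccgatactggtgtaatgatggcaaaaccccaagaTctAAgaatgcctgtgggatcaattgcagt

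The coding sequences were identical at 425 of 447 bases (95.1%). The 22 differences touched 18 of 149 codons and fell 6 times on the first, 6 times on the second and 10 times on the third codon base. They were uneven along the gene: 14 lay in the 136 coding bases of exon 1, 6 in the 165 bases of exon 2, 0 in the 79 bases of exon 3 and 2 in the 67 coding bases of exon 4. The 3′ untranslated regions, which make up most of each transcript (790 bases in Lyz2 and 786 bases in Lyz1), were 96.3% identical with 29 differing bases. The longest stretch without a difference between the transcripts was 118 bases.

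Of the 1286 distinct 31-base stretches of the Lyz2 transcript, 422 (32.8%) also occurred in Lyz1. The same 422 made up 34.2% of the 1233 stretches of Lyz1. No transcript of any other annotated gene held a 31-base stretch of Lyz2 or Lyz1 on either strand. At 100 bases, 24 of 1217 positions of Lyz2 (1.97%) and 24 of 1164 positions of Lyz1 (2.06%) matched the other transcript. At that length, ambiguity between annotated transcripts was limited to the pair itself.

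**Figure D1:**
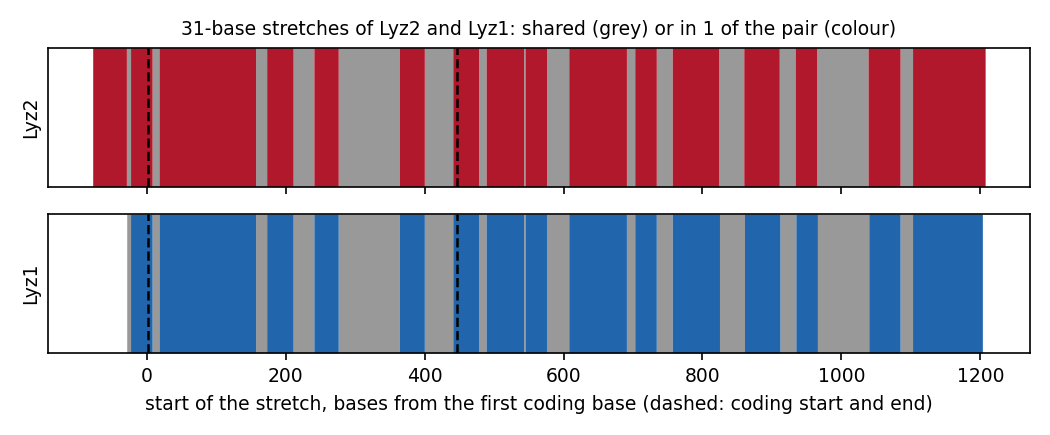
Along each transcript, in bases from the first coding base, grey marks 31-base stretches that also occur in the other gene and colour marks stretches found in that gene alone (red Lyz2, above; blue Lyz1, below); dashed lines are the ends of the coding sequence. Shared stretches are 32.8% of Lyz2 and 34.2% of Lyz1, and the coloured ones are spread over coding sequence and 3′ untranslated region.

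Lyz2 was among the most abundant messenger RNAs of the cells. It stood at 4141, 4025 and 6668 TPM in replicates 1, 2 and 3, a mean of 4945 ± 1494 TPM (SD, n = 3). Lyz1 stood at 1.15, 1.33 and 2.44 TPM, a mean of 1.64 ± 0.70 TPM. The values of the pair did not come near each other in any library, and replicate 3 was the highest for both genes. In counts, Lyz2 had 470045, 355925 and 436796, and Lyz1 had 124, 112 and 152. Lyz2 thus took 0.888, 0.817 and 1.13% of all gene counts of its library. A floor of 3 counts corresponded to 0.0278, 0.0356 and 0.0481 TPM for Lyz1 in replicates 1, 2 and 3, so its counts lay above that floor in each library.

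The TPM of Lyz2 was 3601, 3027 and 2733 times that of Lyz1 in replicates 1, 2 and 3. The log2 ratio of TPM, with 0.1 added to both, was 11.50 ± 0.17 (SD, n = 3 libraries) and had the same sign in 3 of 3 libraries. An exact two-sided sign-flip permutation test gave p = 0.25, the smallest that 3 libraries allow. The ratio moved little between libraries beside its size: the SD of 0.17 is on the same log2 scale as the mean of 11.50.

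By the share of the pair's counts, Lyz1 held 0.0264% in replicate 1 (95% Wilson interval 0.0221 to 0.0314%), 0.0315% in replicate 2 (0.0261 to 0.0378%) and 0.0348% in replicate 3 (0.0297 to 0.0408%). The 3 intervals overlap, and as binomial intervals on rounded counts they reflect counting error alone. No molecular identifiers separate copies of a molecule, so the intervals may be too narrow even for that error. Lyz2 held the remainder, 99.97% on average. Reads themselves were not examined here, so the Lyz1 counts are given as assigned, and with a near-identical neighbour so much more abundant its level is uncertain.

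**Figure D2:**
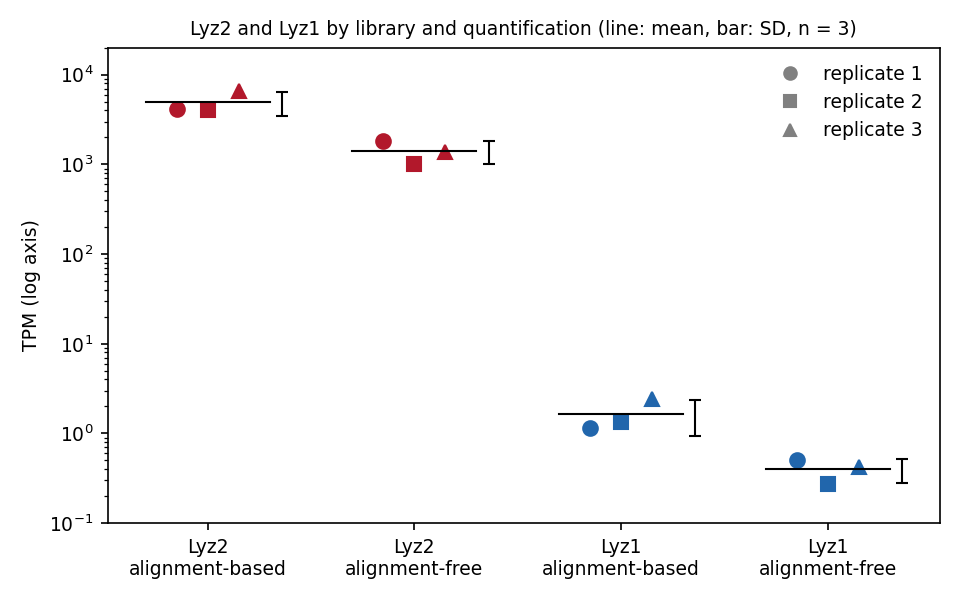
TPM of Lyz2 (red) and Lyz1 (blue) on a log axis, by the alignment-based and the alignment-free tables; each point is a library (circle, square and triangle for replicates 1, 2 and 3), the line is the mean and the bar beside it the SD (n = 3). Lyz2 averages 4945 TPM by the alignment-based and 1409.6 TPM by the alignment-free tables, against 1.64 and 0.397 TPM for Lyz1.

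Ordered by mean TPM, Lyz2 was 4th of 22015 nuclear protein-coding genes, and Lyz1 was 8614th. Directly above Lyz2 were Fth1, encoding the heavy chain of ferritin, at 7835 ± 859 TPM and Psap, encoding the precursor of the lysosomal saposins, at 5085 ± 269 TPM. Directly below it were the lysosomal cathepsin genes Ctsd at 4121 ± 433 TPM and Ctsb at 2763 ± 625 TPM (SD, n = 3 each). The means of Psap and Ctsd lay within 1 SD of that of Lyz2. Within libraries, Ctsd was below Lyz2 in each, at 3842, 3902 and 4620 TPM in replicates 1, 2 and 3. Psap, at 4787, 5155 and 5312 TPM, was above Lyz2 in replicates 1 and 2 and below it in replicate 3. Lyz2 was 4th in replicates 1 and 2 and 3rd in replicate 3. Lyz1 was 8938th, 8915th and 8145th in replicates 1, 2 and 3, and its neighbours in the order, among them Akr1c12, Fam199x and Dnajc25, had the same mean of 1.64 TPM after rounding.

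**Figure D3:**
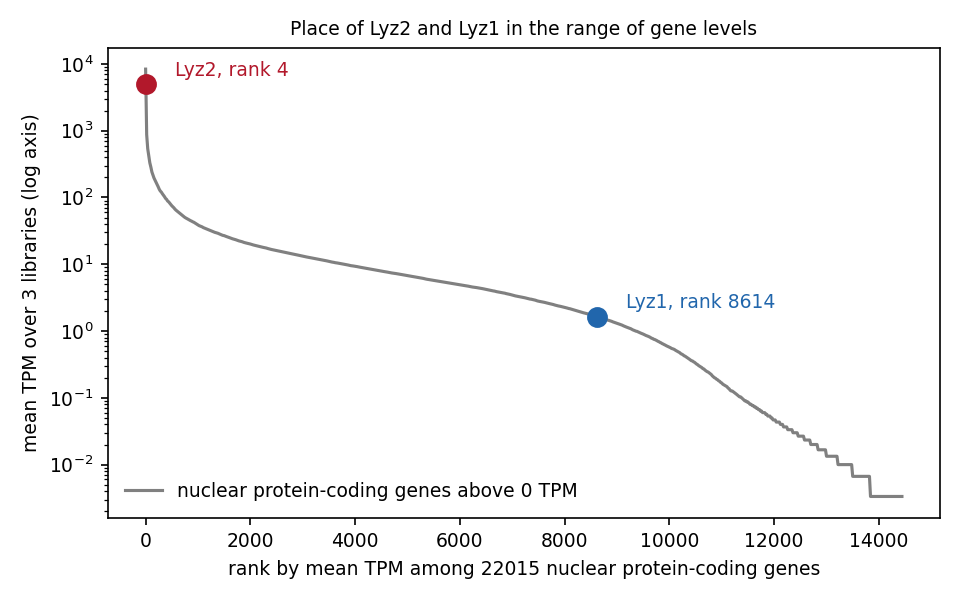
Mean TPM over the 3 libraries (log axis) against rank among 22015 nuclear protein-coding genes, drawn for genes above 0 TPM (grey line), with Lyz2 in red and Lyz1 in blue. Lyz2 sits at rank 4 and Lyz1 at rank 8614.

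Both quantifications gave nearly all of the pair's counts to Lyz2, while the small share of Lyz1 differed between them. In the alignment-based tables the 2 genes summed to the whole numbers 470169, 356037 and 436948 in replicates 1, 2 and 3 at the 2 decimals deposited, although neither gene's own count was whole. The deposited posterior SD of the count was 0.27, 0.25 and 0.48 counts, the same for Lyz2 and for Lyz1. That is small even beside the 112 to 152 counts of Lyz1. The deposited interval around the posterior mean of the Lyz1 TPM, whose level the sources do not give, ran from 0.94 to 1.34 in replicate 1, from 1.08 to 1.57 in replicate 2 and from 2.04 to 2.80 in replicate 3. The interval of replicate 3 lay above those of the other libraries on this scale.

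The alignment-free tables gave Lyz2 489520, 370878 and 465103 estimated counts and Lyz1 128, 93.2 and 134 in replicates 1, 2 and 3. The share of Lyz1 in the pair was 0.0264, 0.0315 and 0.0348% by the alignment-based tables, against 0.0262, 0.0251 and 0.0289% by the alignment-free tables. The alignment-based share was higher by 0.00416 ± 0.00344 percentage points (SD, n = 3) and in 3 of 3 libraries. The exact two-sided sign-flip permutation test gave p = 0.25, again the smallest possible. In replicate 1 the 2 shares differed by 0.000195 points. In each library the Wilson interval of the alignment-free share overlapped that of the alignment-based share. Both shares come from the same reads, which these intervals ignore, so the overlap is no test of their difference.

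As CPM (counts relative to the library's summed gene counts), Lyz2 was 0.20, 0.39 and 0.26 higher on the log2 scale by the alignment-based than by the alignment-free tables in replicates 1, 2 and 3. Lyz1 was 0.21, 0.71 and 0.53 higher. The tables' totals differ, and the median over 10348 genes averaging at least 100 counts was itself shifted, by 0.15, 0.32 and 0.21. Relative to that median, Lyz2 was higher by 0.06 ± 0.01 and Lyz1 by 0.26 ± 0.17 (SD, n = 3). The mean difference was smaller than that of Lyz2 for 96.3% of the 10348 genes and smaller than that of Lyz1 for 98.5%. Neither gene was past 1.5-fold in every library, a call that 1.65% of the 10348 genes received (1.11% higher and 0.541% lower by the alignment-based tables). The difference was larger in TPM. Nuclear protein-coding genes held 22.7, 22.9 and 29.8% of alignment-based TPM, against 10.7, 6.27 and 6.54% of alignment-free TPM, and the part of this in the difference was not tested. By alignment-free TPM, Lyz2 was at 1821, 1023 and 1385 and Lyz1 at 0.502, 0.270 and 0.420 in replicates 1, 2 and 3. There replicate 1 was the highest for both genes, where replicate 3 was the highest by alignment-based TPM. In alignment-free CPM, replicate 3 was the highest for both genes. Lyz2 stood there at 7725, 6233 and 9416 CPM and Lyz1 at 2.02, 1.57 and 2.72 CPM in replicates 1, 2 and 3.

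Between libraries, counts scaled by edgeR's TMM factors put Lyz2 at 9028, 8236 and 11038 CPM and Lyz1 at 2.39, 2.60 and 3.86 CPM in replicates 1, 2 and 3. Replicate 3 exceeded replicate 1 by 1.22-fold for Lyz2 and by 1.61-fold for Lyz1, and it exceeded replicate 2 by 1.34-fold and by 1.48-fold. In TPM the excess of replicate 3 over replicate 1 was 1.61-fold for Lyz2 and 2.12-fold for Lyz1. The share of TPM held by protein-coding genes was also highest in replicate 3, at 29.8% against 22.7 and 22.9% in replicates 1 and 2. Over nuclear protein-coding genes alone, Lyz2 stood at 18268, 17605 and 22403 TPM and Lyz1 at 5.07, 5.82 and 8.20 TPM, replicate 3 again the highest. The SD of log2 CPM was 0.22 for Lyz2 and 0.37 for Lyz1, against a median of 0.11 over the 10348 genes, and 82.3% and 93.1% of those genes varied less. The 9 other genes within 2-fold of the mean count of Lyz2 had a median SD of 0.13, and the 1987 within 2-fold of that of Lyz1 a median of 0.21. Without replicate 3, the SD was 0.10 for Lyz2 and 0.08 for Lyz1, so the spread of both fell by more than 1.5 times without that library.

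Profiles over only 3 libraries are alike for many genes, so likeness was taken as a description. It was the root mean square difference of log2 CPM after subtracting each gene's mean. The 5 protein-coding genes closest to Lyz2 were Arhgap15, Ammecr1, Dapp1, Frmd4a and Clec5a, at differences of 0.0012 to 0.0088. Clec5a encodes a C-type lectin of myeloid cells. In all, 1130 of 9926 genes lay within 0.1 of Lyz2. The 5 closest to Lyz1 were Gpr34, Filip1l, Il1rl2, Cdc42ep2 and Ptger4, at 0.016 to 0.018, and 63 of 9926 genes lay within 0.1. Gpr34 and Ptger4 encode G protein coupled receptors. The members themselves were 0.17 apart: Lyz1 was the 4006th nearest gene to Lyz2, and Lyz2 the 257th nearest to Lyz1.

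The step between the members stood out along the chromosome. In a window of 100 kb on either side of the pair, 8 other genes are annotated. Yeats4, encoding a chromatin reader protein, was at 10.97, 10.86 and 14.8 TPM in replicates 1, 2 and 3. Cpsf6, encoding a factor of messenger RNA cleavage and polyadenylation, was at 8.97, 10.7 and 11.7 TPM. Both lay between Lyz2 and Lyz1 in every library. The other 6 had 0 counts in all libraries by the alignment-based tables, among them the protein-coding gene 9530003J23Rik and the unprocessed pseudogene Gm10936, the nearest annotated gene on the Lyz2 side. By the alignment-free tables these 6 held between 0 and 3 counts. Of all nuclear protein-coding genes, 32.5% had 0 counts in every library by the alignment-based tables. Most of the 6 are of other gene types, for which that share was not computed.

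**Figure D4:**
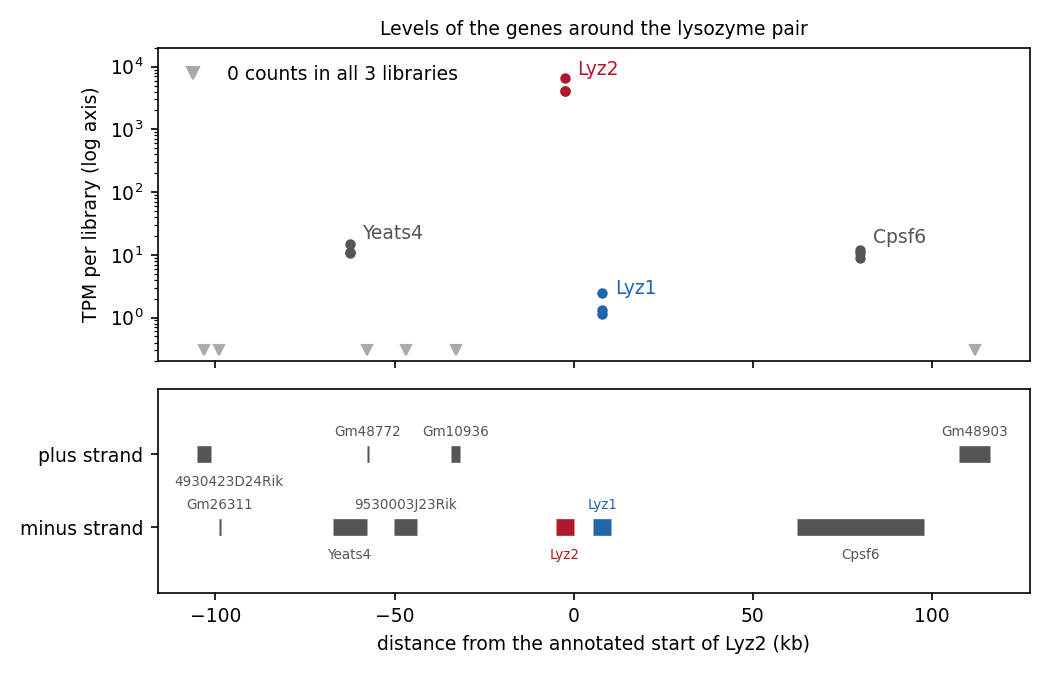
Upper panel: TPM of each gene around the pair in each of the 3 libraries on a log axis, with grey triangles for genes at 0 counts in all libraries; lower panel: the genes by strand, both against distance from the annotated start of Lyz2 in kb. Lyz2 (red) averages 4945 TPM and Lyz1 (blue) 1.64 TPM, with Yeats4 at 12.2 TPM and Cpsf6 at 10.5 TPM to the sides.

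The sequences just upstream of the genes are shown because these neighbours differ so far in level. RefSeq (GRCm38.p6) gives for each gene a window of 250 bases before and 50 bases after its start. GENCODE places the start of Lyz2 49 bases farther upstream than RefSeq does, so the 201 bases before that GENCODE start are printed, with the corresponding part of the Lyz1 window. Both read 5′ to 3′ on the minus strand, at chr10:117282322-117282522 for Lyz2 and chr10:117292918-117293118 for Lyz1. Capitals mark bases that differ or are unmatched when the 2 are aligned.
Lyz2: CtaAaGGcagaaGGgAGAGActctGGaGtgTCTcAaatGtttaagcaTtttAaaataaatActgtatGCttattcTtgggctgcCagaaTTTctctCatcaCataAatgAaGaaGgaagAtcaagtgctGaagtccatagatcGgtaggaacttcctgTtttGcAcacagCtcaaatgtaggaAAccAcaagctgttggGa
Lyz1: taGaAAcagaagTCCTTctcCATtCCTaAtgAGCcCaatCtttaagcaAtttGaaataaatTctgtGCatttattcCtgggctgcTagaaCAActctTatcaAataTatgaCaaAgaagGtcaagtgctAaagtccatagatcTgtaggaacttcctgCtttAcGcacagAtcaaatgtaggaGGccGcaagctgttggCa

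These stretches were 79.5% identical over 195 aligned bases, with 40 differing bases. With unmatched bases included, 46 bases of each stretch are in capitals. The last 99 bases of the windows, which hold the RefSeq start, were identical at 98 (99.0%). The hexamer AGGAAG, an ETS-type core, was found 2 times in the 300-base window of Lyz2 and 1 time in that of Lyz1, both strands searched, and in 35.4% of 32851 promoter windows of the same length. The C/EBP-type letters TTNCNNAA occurred 1 time in each window, at different positions, and in 40.7% of all windows. GAGGAA, the PU box, which overlaps AGGAAG in 5 letters, TGANTCA for AP-1 and TATAAA for a TATA box were found in neither window, and in 28.3, 7.81 and 13.6% of all windows. These matches are letters in a window and no measure of binding.

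Other genes of lysozyme biology were described by lists chosen with earlier results of these data known. Of 8 further lysozyme-like genes, Lyzl4, known from the male germ line, was the single member at 1 TPM or more in every library. Over all nuclear protein-coding genes, 41.3% were. Lyzl4 stood at 1.14, 1.44 and 1.40 TPM. Its mean of 1.33 ± 0.16 TPM lay within 1 SD of that of Lyz1. The other 7, Lalba, Lyzl1, Lyzl6, Spaca3, Spaca5, Lyg1 and Lyg2, had 0 counts in every library, as did 32.5% of nuclear protein-coding genes. Lalba encodes the milk protein α-lactalbumin, Spaca3 and Spaca5 encode sperm acrosomal proteins, and Lyg1 and Lyg2 encode lysozymes of the goose type. A list of 4 transcription factors known to act on lysozyme genes in myeloid cells, not a full set, had 4 of 4 at 1 TPM or more in every library, beside the same 41.3%. These were Spi1 (PU.1) at 59.7, 54.7 and 87.7 TPM, Cebpa at 38.4, 48.5 and 43.4 TPM, Cebpb at 25.0, 41.2 and 42.7 TPM and Gabpa at 6.85, 6.02 and 9.27 TPM in replicates 1, 2 and 3.

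A list of 15 genes for peptidoglycan sensing and uptake was broader than receptors and carriers of its fragments. It held, for example, the kinase genes Nagk and Ripk2 and the lipoprotein receptor gene Tlr2. Of the 15 genes, 9 were at 1 TPM or more in every library, where 41.3% of all nuclear protein-coding genes were. Slc15a3, an endolysosomal transporter of peptides and muramyl dipeptide, led at 109, 124 and 133 TPM. Tlr2, a receptor of bacterial lipoproteins, stood at 26.8, 20.0 and 55.8 TPM, highest in replicate 3 like Lyz2. In TPM this was not particular to Tlr2, as Slc15a3, Nagk, Slc46a3, Nod1, Ripk2 and Nod2 were also highest there. On the log2 CPM scale Tlr2 stood at 7.22, 6.70 and 7.86 in replicates 1, 2 and 3. Nod1, Nod2, Ripk2, Slc46a3, Nagk, Tlr1 and Tlr6 were also highest in replicate 3 on that scale. Slc15a3 was lowest in replicate 3 on it, at 9.12, 9.22 and 8.95, and Slc15a4 was highest in replicate 1, at 6.05, 5.92 and 5.95. Nagk, encoding a kinase of N-acetylglucosamine, was at 33.2 ± 4.96 TPM and the transporter Slc46a3 at 29.0 ± 7.55 TPM. Nod1 stood at 4.05, 4.6 and 6.42 TPM and the kinase gene Ripk2, which acts below both receptors, at 2.58, 2.24 and 3.77 TPM. Nod2 stood near 1 TPM, at 0.82, 1.01 and 1.34. The peptidoglycan recognition genes Pglyrp2, Pglyrp3 and Pglyrp4 had 0 counts in every library, and Pglyrp1 had 20, 22 and 4 counts. The median of the 15 genes was 5.02 TPM, against 0.16 TPM over all nuclear protein-coding genes.

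Of 13 genes of other secreted antibacterial proteins, several of which are also neutrophil markers, 5 were at 1 TPM or more in every library, a share near the 41.3% of all nuclear protein-coding genes. S100a9 and S100a8, subunits of calprotectin, led at 20.2 ± 6.22 and 12.3 ± 2.67 TPM, followed by the chitinase-like gene Chil3 at 4.47 ± 0.58 TPM. Lcn2, encoding a siderophore-binding lipocalin, was at 1.64, 2.62 and 1.53 TPM. Bpi had 0 counts in all libraries. Lyz2 exceeded the summed TPM of these 13 genes in each library, with 4141, 4025 and 6668 TPM against sums of 35.4, 59.5 and 40.6 TPM.

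Markers of other lysozyme-expressing cells were taken in the same way. The 9 neutrophil markers summed to 29.2, 51.4 and 33.4 TPM in replicates 1, 2 and 3, with 3 of 9 at 1 TPM or more in every library, near the 41.3% of all nuclear protein-coding genes, and Ly6g, a defining marker, at 0, 2 and 0 counts. Their sum was highest in replicate 2, the library in which Lyz2 was lowest, and the part of such cells in the Lyz2 level was not tested. The 3 monocyte markers summed to 6.12, 6.28 and 6.45 TPM. Of 5 Paneth cell markers 4 had 0 counts in every library, the α-defensin genes Defa17 and Defa24 included, and Mmp7 had a single count, in replicate 2. Of 5 markers of alveolar type II cells, Abca3 was at 14.2 ± 2.06 TPM, and Sftpc, Sftpb, Sftpa1 and Lamp3 had 0 counts. Over all nuclear protein-coding genes, 32.5% had 0 counts in every library. The 7 macrophage markers summed to 1333, 1325 and 1776 TPM. The sum was highest in replicate 3 in TPM, but on the log2 CPM scale, where both lysozyme genes were also highest in replicate 3, 2 of the 7 (Csf1r and Fcgr1) were. Cd68, the most abundant of them, stood at 10.40, 10.11 and 10.38 log2 CPM in replicates 1, 2 and 3. In bulk RNA, more cells of a type and more RNA per cell cannot be told apart.

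**Figure D5:**
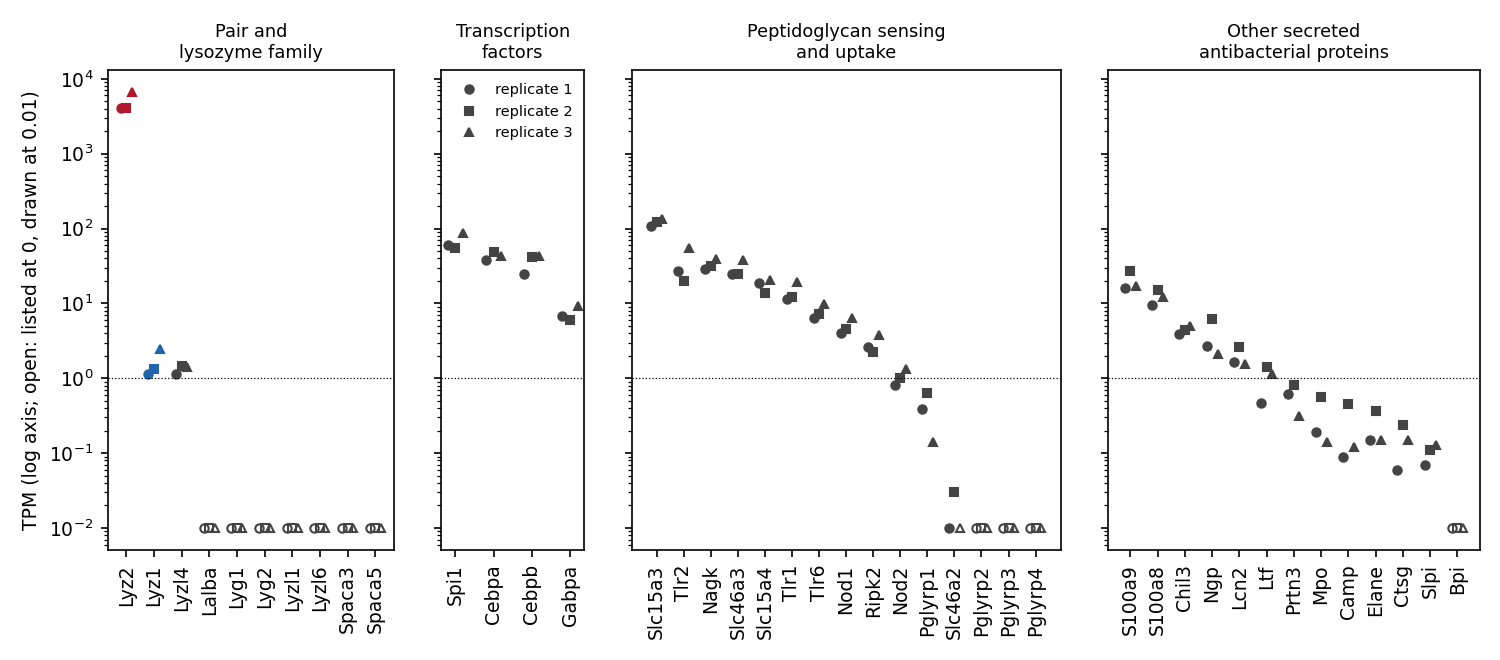
TPM on a log axis of Lyz2 (red), Lyz1 (blue) and the listed genes in each library (circle, square and triangle for replicates 1, 2 and 3), with genes listed at 0 drawn as open symbols at 0.01 and a dotted line at 1 TPM. Lyz2 lies above every listed gene, Slc15a3 included, and Lyz1 lies at the level of Lyzl4.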

How the data were processed

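Each of the 3 libraries came with alignment-based gene and transcript tables and an alignment-free transcript table. Per the file headers, column names of the alignment-based tables are those of RSEM output (expected counts, TPM), and those of the alignment-free tables are kallisto's (estimated counts, TPM). Per the text files deposited with each library, the assembly was mm10 and the annotation GENCODE M21. Tool versions, read length and strandedness: not given in the sources used for this work. The deposited expected counts are not normalized, and the deposited TPM values sum to a fixed total over a whole table.

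For the alignment-free tables, gene values are sums over a gene's transcripts. Rows other than annotated genes, 0.186, 0.167 and 0.0395% of alignment-based counts, were left out. TMM factors came from edgeR 4.0.16 under R 4.3.3, on rounded expected counts after its expression filter, and 0.5 was added to counts before taking log2; this step was tested on simulated data. Alternatives used DESeq2 1.42.0 size factors, other pseudocounts, filters and folds, the other tables, and each library left out in turn. Sequences were compared with Biopython 1.88 in Python 3.11.15. With a single group there is no test between conditions. The sign-flip permutation p-values reflect only that the 3 libraries shared a sign, whatever the spread between these samples, which may be technical. The members and lists were chosen with earlier results of these data known. Genes were named by rule: the pair, its neighbours within 100 kb and in rank, list members, and the 5 nearest profiles for each gene.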

Additional observations from a re-analysis of the deposited data

How the results depend on the processing

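Of 125 alternative values for 20 results, 16 moved beyond the limits used, and the results with a sign, the log2 ratio of Lyz2 over Lyz1 and the difference in Lyz1 share, kept it under each alternative run. Part of the 125 could not move. Each gene has 1 annotated transcript, so its transcript share was fixed, and restricting to protein-coding transcripts repeated the main value. The 2 signs could not turn when a library was left out, as all 3 libraries shared them. Nor could another pseudocount, added to both genes, turn the sign of the ratio. The shares of Lyz2 and Lyz1 are complements and were counted as separate results. The mean level of Lyz2 was 1409.6 TPM in the alignment-free tables and 19425 TPM when scaled over nuclear protein-coding genes, and that of Lyz1 0.397 and 6.36 TPM. Scaling over nuclear protein-coding genes changes the denominator of TPM by construction. The cause of the difference in the alignment-free tables was not tested. The SD of Lyz2 was 0.409 on log2(TPM + 0.1), and leaving out each replicate gave 0.0983 to 0.301 for Lyz2 and 0.0819 to 0.487 for Lyz1 on log2 CPM, lowest without replicate 3. Genes past the fold between quantifications numbered 171, and 287 at 1.2-fold, 415 at a mean count of 20 or more and 1106 with a count in every library; subtracting each library's median ratio, an alternative chosen after seeing the data, gave 178, with 99 higher and 79 lower in place of 115 and 56. At 5 TPM, 0 further lysozyme-like genes, 2 other antibacterial genes and 0 monocyte markers were detected in every library, and by alignment-free TPM 0, 3 and 0; the cause was not tested. No paired analysis was possible because all libraries belong to a single group, so no samples could be paired between groups; the ratio and the share difference compare measures within a library. With 124, 112 and 152 counts, counting error limits Lyz1 far more than Lyz2.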
